A study of Mus musculus with 6 samples.

Results

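Collagen genes were followed in the brown adipose tissue of mice, a thermogenic fat. The members were all rows of the gene count table whose symbol reads Col, a number, a, and a number, such as Col1a1, and 44 of the 24062 symbols met that rule. The 6 libraries came from male C57BL/6 mice aged 12 weeks. Of these, 3 were labelled heterozygous for FAM195A, which the series describes as a stress granule protein, and 3 were labelled knockout. No wild-type library is among the samples used here, so by their labels both groups carry at least 1 disrupted copy. The sources used here give neither the construction of the allele nor the housing temperature. Each label is taken as 1 mouse, since the protocol names 3 mice per genotype.

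Collagens are built from 3 chains that wind around each other over a long stretch built of triplets that each begin with glycine. Fibrillar collagens (types I, II, III, V, XI, XXIV and XXVII) form or nucleate the banded fibres of connective tissue. Type IV forms the sheet-like network of the basement membrane that surrounds every adipocyte and every capillary, and type VI forms beaded filaments next to that membrane and is abundant in fat. Fibril-associated collagens decorate fibres, and the multiplexins (types XV and XVIII) sit at the border between basement membrane and stroma. Fat tissue expands and shrinks inside this scaffold, which fibroblasts, endothelial cells, mural cells and adipocytes make together.

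The reads counted in genes ran from 18781401 to 25084627 per library, and 13300 genes passed the filter on low counts. Collagen rows held 45881 to 63435 of those reads in each library. Fam195a, the targeted gene, stood at 69.0, 70.5 and 103 CPM (reads relative to the library size, scaled by the trimmed mean of M values) in the heterozygous group, listed from library 1 to 3 here and throughout, against 50.5, 82.0 and 81.3 CPM in the knockout group (log2 fold change -0.18, adjusted p = 0.896 by the quasi-likelihood test of edgeR). The targeted transcript does not separate the labels, so knockout and heterozygous name labels here, and directions are given for the former relative to the latter. Markers of adipocytes (9 genes) summed to 24860 to 30747 CPM in every library. The 20 skeletal muscle markers summed to 10631, 24374 and 31446 CPM in the heterozygous group, against 6621, 3827 and 3698 CPM in the knockout group. All 20 were lower in the edgeR fit, each with an unadjusted p under 0.05, against 12.1% of all genes in either direction. None of the 20 had an adjusted p under 0.05. The marker sums moved with the genotype label, and the part of muscle RNA in the collagen results was not tested. The 13 fibroblast markers summed to 2266 and 2300 CPM in heterozygous 3 and knockout 3, whose titles begin with RE, and to 1175 to 1535 CPM in the 4 libraries whose titles begin with RF. What the prefix stands for is not given in the labels.

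Collagen RNA was spread unevenly over the chains. Per kilobase of exon, Col3a1 was the most abundant at 85.1 CPM per kb in the heterozygous and 87.1 CPM per kb in the knockout libraries. It was followed by the type IV chains Col4a1 (72.9 and 77.2 CPM per kb) and Col4a2 (57.4 and 66.5 CPM per kb). Col1a2 (37.6 and 36.2 CPM per kb), Col6a1 (23.7 and 26.8 CPM per kb) and Col1a1 (22.1 and 22.8 CPM per kb) came next, and these 6 genes held 77.4% of the summed collagen level. By class, fibrillar collagens held 46.0%, type IV 34.7%, type VI 12.6% and multiplexins 3.65% of that sum. Of the 44 rows, 30 passed the filter. The other 14 had 1 to 58 reads over all 6 libraries, 318 in all, and were not tested.

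**Figure D1:**
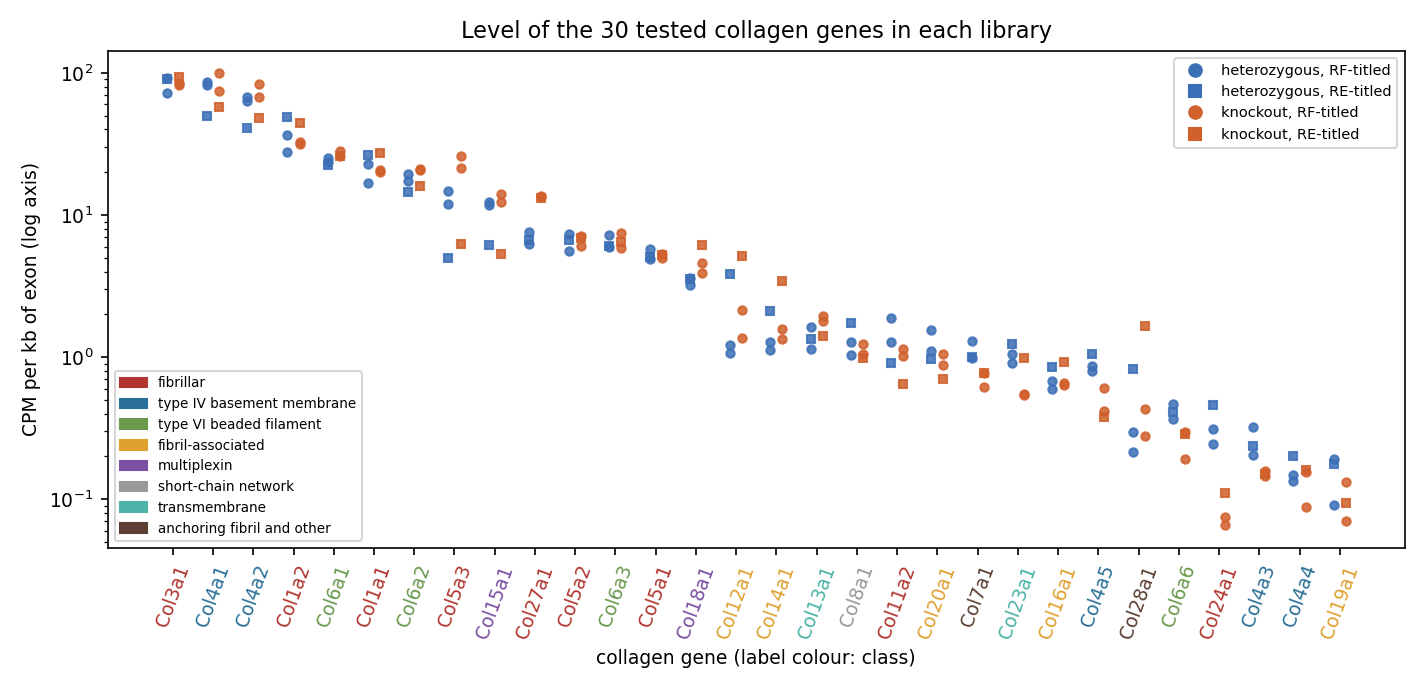
Level of the 30 tested collagen genes, in CPM per kb of exon on a log axis, with 1 point per library, blue for heterozygous and orange for knockout, squares for RE-titled and circles for RF-titled libraries. Col3a1, Col4a1 and Col4a2 lie highest, and the 3 knockout points of Col27a1 lie together above the heterozygous points.

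Across genotype, 1 of the 30 tested collagens passed the threshold, Col27a1, which rose. By the same test 0.0526% of all 13300 genes rose, 0.534% fell and 0.586% changed in either direction. No collagen fell by edgeR, while 7 of the 30 had an unadjusted p under 0.05 in either direction, against 12.1% of all genes. DESeq2 called Col27a1 higher and Col24a1 and Col4a5 lower, where it called 0.995% of the genes it tested higher and 5.04% lower, 6.04% in all. The fit by limma-voom called Col27a1 and Col24a1, against 1.46% of all genes. The median log2 fold change was 0.04 over the 30 collagens and 0.02 over all genes. In 8 of the 30 the groups did not overlap (3 with the knockout libraries above and 5 with them below), against 18% of all genes tested, 8.11% with the knockout libraries above and 9.89% with them below. In tissue, fewer cells of a type and less RNA per cell cannot be told apart in any of these differences.

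**Figure D2:**
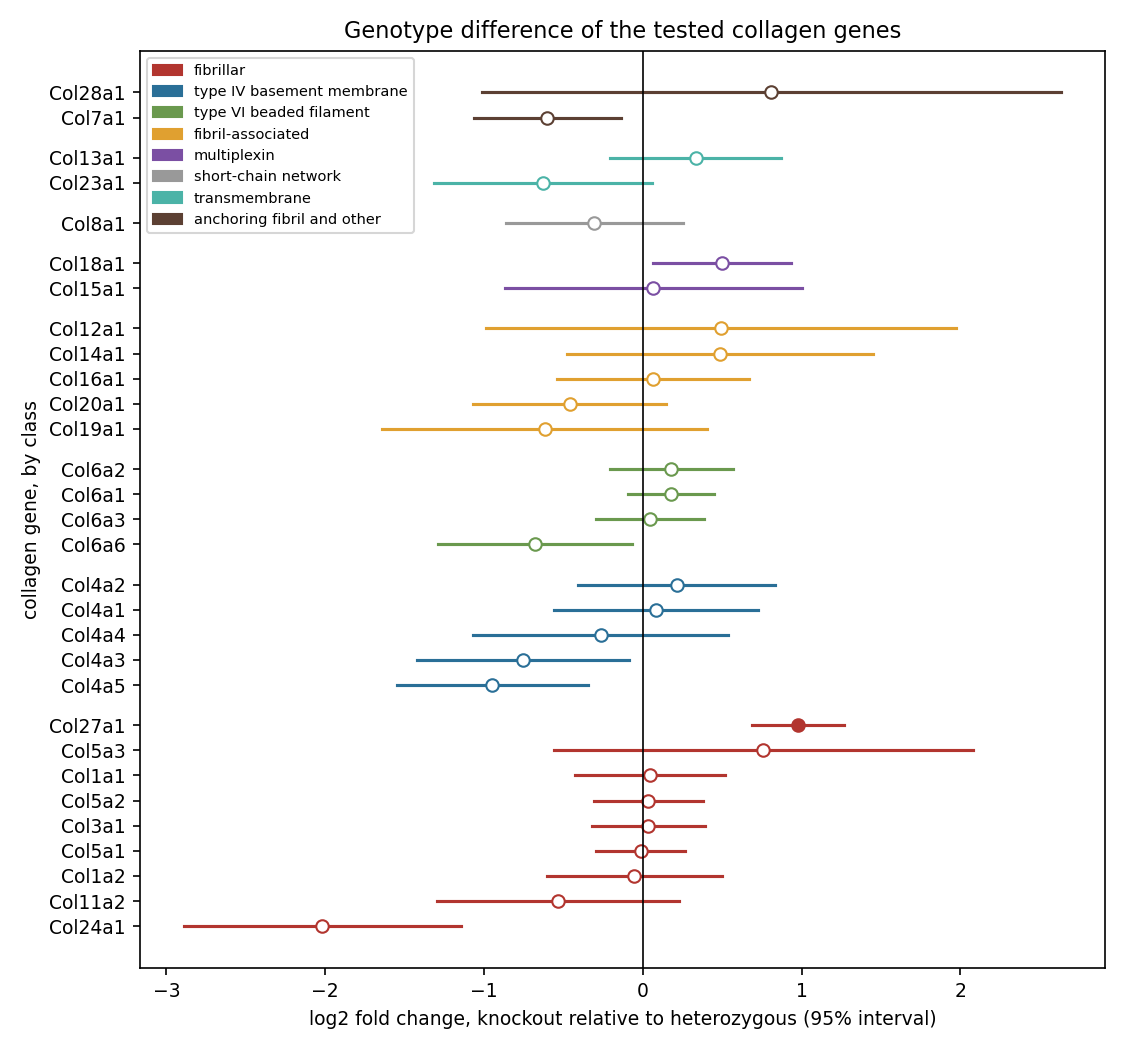
Log2 fold change of each tested collagen gene, knockout relative to heterozygous, with its 95% interval, grouped and coloured by class. The filled point, Col27a1 at 0.98, passed the threshold; open points did not, and Col24a1 at -2.02 lies farthest from 0.

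Among fibrillar collagens, Col27a1 and Col24a1 lay at opposite ends. Both encode minor fibrillar chains of a branch that stands apart from types I, II, III, V and XI, and both are known from cartilage and bone. Their exon structure is alike: exons of 54 bases, the repeat unit of fibrillar collagen genes that codes for whole glycine-led triplets, made up 33 of 61 coding exons in Col27a1 and 33 of 60 in Col24a1. Over the 11 fibrillar genes 47.0% of coding exons had that length, against 25.2% in the 9 fibril-associated and 4.05% in the 6 type IV genes. In the GENCODE M21 annotation of GRCm38, Col27a1 lies on the plus strand of chromosome 4 from 63214004 to 63334991. Col24a1 lies on the plus strand of chromosome 3 from 145292472 to 145552011. No exon of either overlaps an exon of another annotated gene. The 250 bases before the RefSeq start of both, with those of Col5a3, are shown because these 3 fibrillar genes differed most across the libraries, Col27a1 and Col24a1 by genotype and Col5a3 by title prefix. The windows are Col27a1 chr4:63215162-63215411 (plus strand), Col24a1 chr3:145292222-145292471 (plus strand) and Col5a3 chr9:20815068-20815317 (minus strand), from RefSeq on GRCm38.p6, 5′ to 3′, and no annotated exon falls in them. The Col27a1 window lies inside the GENCODE gene, whose annotated start is farther upstream. Capitals mark a GC box or a CCAAT box on either strand.
Col27a1: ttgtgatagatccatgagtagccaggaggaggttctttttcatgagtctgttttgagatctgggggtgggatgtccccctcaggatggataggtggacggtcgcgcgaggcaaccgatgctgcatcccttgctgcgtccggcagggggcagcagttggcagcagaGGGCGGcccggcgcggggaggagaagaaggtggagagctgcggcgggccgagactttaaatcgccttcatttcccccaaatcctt
Col24a1: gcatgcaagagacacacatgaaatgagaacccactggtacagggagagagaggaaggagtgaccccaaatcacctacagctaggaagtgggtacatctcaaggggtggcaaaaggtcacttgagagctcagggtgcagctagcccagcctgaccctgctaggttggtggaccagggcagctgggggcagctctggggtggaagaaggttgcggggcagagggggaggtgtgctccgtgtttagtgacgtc
Col5a3: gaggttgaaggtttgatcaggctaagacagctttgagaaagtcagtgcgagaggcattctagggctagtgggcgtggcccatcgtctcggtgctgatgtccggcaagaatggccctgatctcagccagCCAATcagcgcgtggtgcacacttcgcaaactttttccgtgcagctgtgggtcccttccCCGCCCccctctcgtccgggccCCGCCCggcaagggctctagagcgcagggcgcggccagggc
The motifs searched, on both strands, were the TATA box TATAAA, the CCAAT box CCAAT, the GC box GGGCGG and the AP-1 site TGANTCA. Col27a1 held 1 GC box, Col5a3 held 2 GC boxes and 1 CCAAT box, and Col24a1 held none of the 4 motifs. Of 32851 RefSeq windows of that length, 32.7% held a GC box, 33.9% a CCAAT box, 12.4% a TATA box and 6.75% an AP-1 site.

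Col27a1 stood at 47.4, 58.1 and 50.6 CPM in the heterozygous group against 102, 104 and 101 CPM in the knockout group. Each knockout library lay above each heterozygous one, and the knockout libraries lay closer together (52.0 ± 5.5 against 102 ± 1.75 CPM, SD, n = 3 each). The log2 fold change was 0.98 (SE 0.124, 95% interval 0.69 to 1.27, edgeR adjusted p = 0.0268), which is 161% to 241% of the heterozygous level. The difference was of the same size within the title prefixes: 0.97 in the 4 RF-titled libraries (edgeR adjusted p = 0.0374) and 0.99 in the RE-titled pair, which has 1 library per group and no test. Leaving out single libraries kept the log2 fold change between 0.92 and 1.07, while the adjusted p rose to 0.114 to 0.132 without heterozygous 2 or 3 or knockout 1 or 2. When the library sizes were taken without the skeletal muscle markers the value was 0.98 (edgeR adjusted p = 0.0252). That step changes the scaling alone, and it left Col24a1 at -2.02 as well. It cannot show the part of muscle RNA in the Col27a1 values. The 8 markers of cartilage cells, a known site of Col27a1, summed to at most 5.49 CPM in any library. Of these, 1 passed the filter (log2 fold change -1.33), and Matn1 was at 0 throughout. The part of such cells in the Col27a1 values was not tested.

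**Figure D3:**
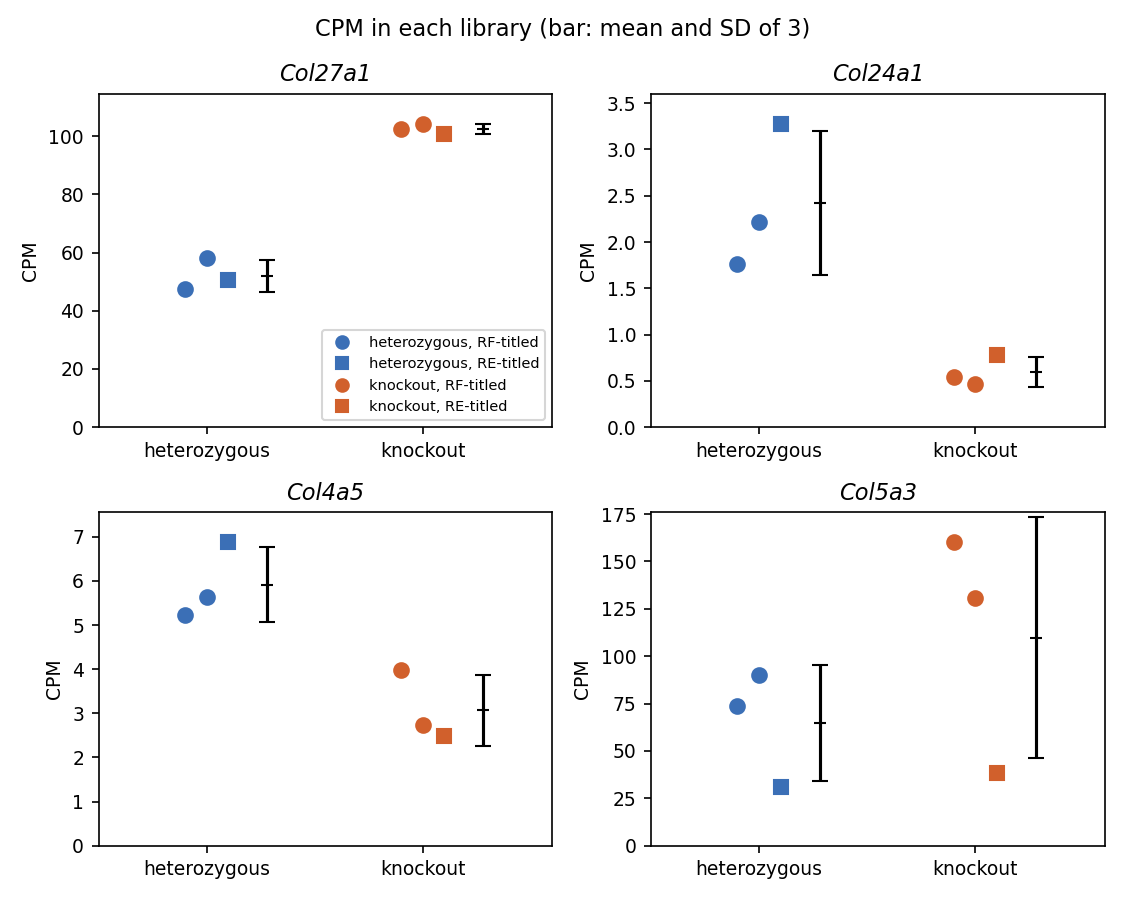
CPM of Col27a1, Col24a1, Col4a5 and Col5a3 in each library on linear axes from 0, with the mean and SD of each group of 3 beside the points, squares for RE-titled and circles for RF-titled libraries. The groups do not overlap for the first 3 genes, whereas the Col5a3 values of the RE-titled libraries, 30.7 and 38.5 CPM, lie below all others.

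Col27a1 also hosts a microRNA. Mir455 lies inside an intron of Col27a1 on the same strand, from 63256851 to 63256932 on chromosome 4, and miR-455 has been described as a promoter of brown fat cell formation. Its 2 mature arms, from RefSeq on GRCm38.p6, are given 5′ to 3′ with the seed, bases 2 to 8, in capitals, since they lie within the gene that rose.
mmu-miR-455-5p: uAUGUGCCuuuggacuacaucg
mmu-miR-455-3p: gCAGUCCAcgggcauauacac
The count table lists Mir455 at 0 reads in all 6 libraries. Mature microRNAs are too short for a standard RNA library, so the table does not bear on their level.

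Col24a1 was the collagen furthest below 0. It stood at 1.76, 2.22 and 3.28 CPM in the heterozygous group against 0.538, 0.468 and 0.785 CPM in the knockout group, from 33, 44 and 71 reads against 12, 12 and 17. The groups did not overlap. The log2 fold change was -2.02 (SE 0.373, 95% interval -2.89 to -1.15), and the gene did not pass by edgeR (adjusted p = 0.0719). It passed by DESeq2 (adjusted p = 0.000623), by limma-voom (adjusted p = 0.0471) and with the title prefix as a covariate by edgeR (adjusted p = 0.014). In that fit Col27a1 rose and Col24a1 fell, 2 of 30 collagens, where 0.504% of all genes rose and 1.83% fell, 2.34% in all. Within libraries the log2 ratio of Col27a1 to Col24a1 reads was 4.75, 4.71 and 3.95 in the heterozygous group against 7.57, 7.80 and 7.01 in the knockout group. That ratio does not depend on library scaling, and it was formed after the values were seen. The heterozygous libraries ranked alike for Col24a1 and for the muscle markers given above, and the knockout libraries did not. That heterozygous order was not particular to Col24a1: Col4a5, Col4a6, Col8a1, Col16a1, Col23a1, Col28a1 and Tgfb2, given further on, were among those that shared it. The share of all genes with that order was not computed, and groups of 3 allow few orders. Col4a5, Col8a1 and the untested Col4a6 also ranked the knockout libraries as the markers did. The part of muscle RNA in the values of these genes was not tested.

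The abundant fibrillar chains did not pass the test. Col1a1, the chain present in 2 copies in each type I molecule, stood at 137, 100.3 and 156 CPM in the heterozygous group against 119, 124 and 162 CPM in the knockout group. Col3a1, whose molecules consist of its own chain alone and are common in soft tissue, stood at 515, 402 and 503 CPM and at 473, 456 and 524 CPM in the same order. The 2 groups lay across each other for both genes. Their 95% intervals reached from 74.3% to 143% of the heterozygous level for Col1a1 (log2 0.04) and from 79.9% to 131% for Col3a1 (log2 0.03). Col1a2, the other type I chain, had an interval of 65.8% to 141% (log2 -0.05). Col5a1 and Col5a2, which nucleate type I fibrils, varied little between libraries, from 41.4 to 48.4 CPM and from 36.9 to 48.5 CPM. Their intervals were 81.5% to 120% (log2 -0.01) and 80.9% to 130% (log2 0.04). Col11a2, a type XI chain, had a log2 fold change of -0.53 (edgeR adjusted p = 0.653). Of the untested fibrillar genes, Col11a1 had 35 reads in all. Col2a1, the main collagen of cartilage, had 0 reads in each heterozygous library and 2 in each knockout library, 6 in all, and was not tested.

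Col5a3, another type V chain, had a larger fitted difference between title prefixes, given further on, than between genotypes. It stood at 73.7, 90.1 and 30.7 CPM in the heterozygous group against 160.1, 131 and 38.5 CPM in the knockout group. The groups overlapped only through the RE-titled libraries, heterozygous 3 and knockout 3. The log2 fold change was 0.76 (SE 0.562, edgeR adjusted p = 0.735), 0.83 in the RF-titled libraries (edgeR adjusted p = 0.0932) and 0.32 in the RE-titled pair. With the title prefix as a covariate it was 0.66 (SE 0.153, edgeR adjusted p = 0.0665), which did not pass. The other type V chains did not follow it: the log2 ratio of Col5a3 to Col5a1 reads was 0.61, 1.12, -0.47, 1.84, 1.63 and -0.20 in heterozygous 1 to 3 and knockout 1 to 3.

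No type IV chain passed by edgeR, and DESeq2 called Col4a5 lower. Col4a1 and Col4a2 form the network of nearly all basement membranes and sit head to head on chromosome 8, where their annotated 5′ ends overlap by 22 bases. Col4a1 stood at 543, 572 and 332 CPM in the heterozygous group against 657, 495 and 379 CPM in the knockout group. Col4a2 stood at 412, 436 and 263 CPM and at 542, 434 and 312 CPM. In both genes the RE-titled libraries were the lowest of all 6. The log2 fold changes were 0.08 (95% interval -0.56 to 0.72) and 0.21 (-0.41 to 0.83), with edgeR adjusted p = 0.962 and 0.888. The 3 minor chains tested were low, and their log2 fold changes were below 0. Col4a5, whose chain joins alternative networks and is altered in Alport syndrome, stood at 5.23, 5.65 and 6.88 CPM in the heterozygous group against 3.99, 2.73 and 2.49 CPM in the knockout group. The groups did not overlap (log2 -0.95, SE 0.256, edgeR adjusted p = 0.145 and DESeq2 adjusted p = 0.0287). With the title prefix as a covariate Col4a5 did not pass by edgeR (log2 -0.95, edgeR adjusted p = 0.0894). Col4a3, its partner in the kidney and lung networks, stood at 2.77, 1.76 and 2.03 CPM and at 1.34, 1.25 and 1.29 CPM, again without overlap (log2 -0.75, edgeR adjusted p = 0.335). Col4a4, which starts 71 bases from Col4a3 on the other strand, had a log2 fold change of -0.27, and its groups overlapped. Col4a6 had 32 reads in all and was not tested. The log2 ratio of Col4a5 to Col4a1 reads was -6.70, -6.66 and -5.59 in the heterozygous and -7.36, -7.50 and -7.25 in the knockout libraries, and it too was formed after the values were seen. Of the 5 type IV genes tested, 2 had an unadjusted p under 0.05, against 12.1% of all genes.

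No type VI chain passed by edgeR, DESeq2 or limma-voom. Col6a1, Col6a2 and Col6a3 encode the 3 chains of the usual type VI molecule. Col6a1 stood at 104, 96.2 and 91.5 CPM in the heterozygous group against 116, 106 and 107 CPM in the knockout group, with all knockout libraries above all others by a small margin. Its log2 fold change was 0.18 (95% interval -0.10 to 0.45, edgeR adjusted p = 0.688), that of Col6a2 0.18 and that of Col6a3 0.04. Col6a6, a chain that can take the place of Col6a3, was far lower, at 4.27, 3.38 and 3.74 CPM in the heterozygous group against 2.73, 1.76 and 2.63 CPM in the knockout group. Its groups did not overlap, and it did not pass (log2 -0.68, edgeR adjusted p = 0.347). Col6a5 and Col6a4 lie next to it on chromosome 9 and had 27 and 2 reads in all. The share of type VI in the summed collagen level per kb was between 12.4% and 13.0% in all 6 libraries, while that of type IV ran from 26.4% to 40.9%.

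None of the other classes held a called gene by edgeR, DESeq2 or limma-voom, and 2 of their 12 tested genes, Col18a1 and Col7a1, had an unadjusted p under 0.05, against 12.1% of all genes. Col18a1, the source of the antiangiogenic fragment endostatin, stood at 21.8, 24.7 and 24.1 CPM in the heterozygous group against 31.1, 26.6 and 41.7 CPM in the knockout group (log2 0.50, SE 0.186, edgeR adjusted p = 0.327). All 3 knockout libraries were above all heterozygous ones. Col7a1, the anchoring fibril chain of skin, stood at 9.18, 12.0 and 9.28 CPM and at 5.69, 7.18 and 7.20 CPM, with the knockout libraries below (log2 -0.60, SE 0.197, edgeR adjusted p = 0.242). Of the transmembrane collagens, Col13a1 had a log2 fold change of 0.33 and Col23a1 of -0.63 (edgeR adjusted p = 0.711 and 0.48). The short-chain collagen Col8a1 was at -0.30, and its partner Col8a2 had 20 reads in all. Among fibril-associated collagens, Col12a1 was at 0.49, Col14a1 at 0.48 and Col16a1 at 0.07, while Col20a1 was at -0.46 and Col19a1 at -0.62. Col28a1, grouped here with Col7a1, was at 0.81, and Col15a1, the other multiplexin, at 0.07 (edgeR adjusted p = 0.823 and 0.98). Col22a1, a collagen of the junction between muscle and tendon, was not tested and is named after its values were seen. Its counts were 6, 13 and 25 reads in the heterozygous group against 2, 2 and 0 reads in the knockout group. It ranked the heterozygous libraries as the muscle markers did, an order that other collagens shared. The other untested members of these classes were Col9a1, Col9a2 and Col9a3 of type IX (1, 9 and 58 reads in all), Col10a1 (16 reads), Col17a1 (36 reads), Col25a1 (9 reads) and Col26a1 (19 reads).

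More collagens passed for the title prefix than for the genotype label. In a fit with both terms, 7 of the 30 collagens (23.3%) differed between RE-titled and RF-titled libraries at an adjusted p of 0.05, against 9.35% of all genes tested (5.02% higher and 4.32% lower in the RE-titled libraries). This comparison was added after the values were seen and rests on 2 libraries against 4. Lower in the RE-titled libraries were Col5a3 (log2 -1.66, SE 0.175, edgeR adjusted p = 0.00587), Col15a1 (-1.14, edgeR adjusted p = 0.0062), Col4a1 (-0.68, edgeR adjusted p = 0.039) and Col4a2 (-0.67, edgeR adjusted p = 0.0297). Col15a1, a multiplexin of the basement membrane zone, stood at 37.1 and 32.2 CPM in the RE-titled libraries and at 70.8 to 84.1 CPM in the RF-titled ones. Higher were Col12a1 (1.65, edgeR adjusted p = 0.00587), Col14a1 (1.03, edgeR adjusted p = 0.0145) and Col28a1 (1.98, edgeR adjusted p = 0.0116). Col12a1 and Col14a1, fibril-associated chains of dense connective tissue, stood at 46.7 and 62.2 CPM and at 13.7 and 22.1 CPM in the RE-titled libraries, against 13.0 to 26.0 CPM and 7.26 to 10.2 CPM in the others. Col28a1, known from peripheral nerve, stood at 3.51 and 7.06 CPM against 0.907 to 1.84 CPM. In each of these 7 genes the RE-titled libraries lay wholly on one side of the RF-titled ones. Over all 30 collagens that held for 13, against 34.1% of all genes. The fibroblast marker sum moved with the prefix in the direction of the higher genes, and its part in the result was not tested. Its members did not all move alike. Dcn stood at 401 and 353 CPM in the RE-titled libraries against 191 to 233 CPM in the others, and Fbn1 at 17.4 and 21.1 CPM against 24.9 to 36.9 CPM. Markers of Schwann cells, the usual source of Col28a1, summed to 158 and 129 CPM in the RE-titled and to 69.3 to 109.7 CPM in the RF-titled libraries. Of the RE-titled libraries, heterozygous 3 had the higher marker sum and the lower Col28a1 level. The part of such cells in the Col28a1 values was not tested.

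**Figure D4:**
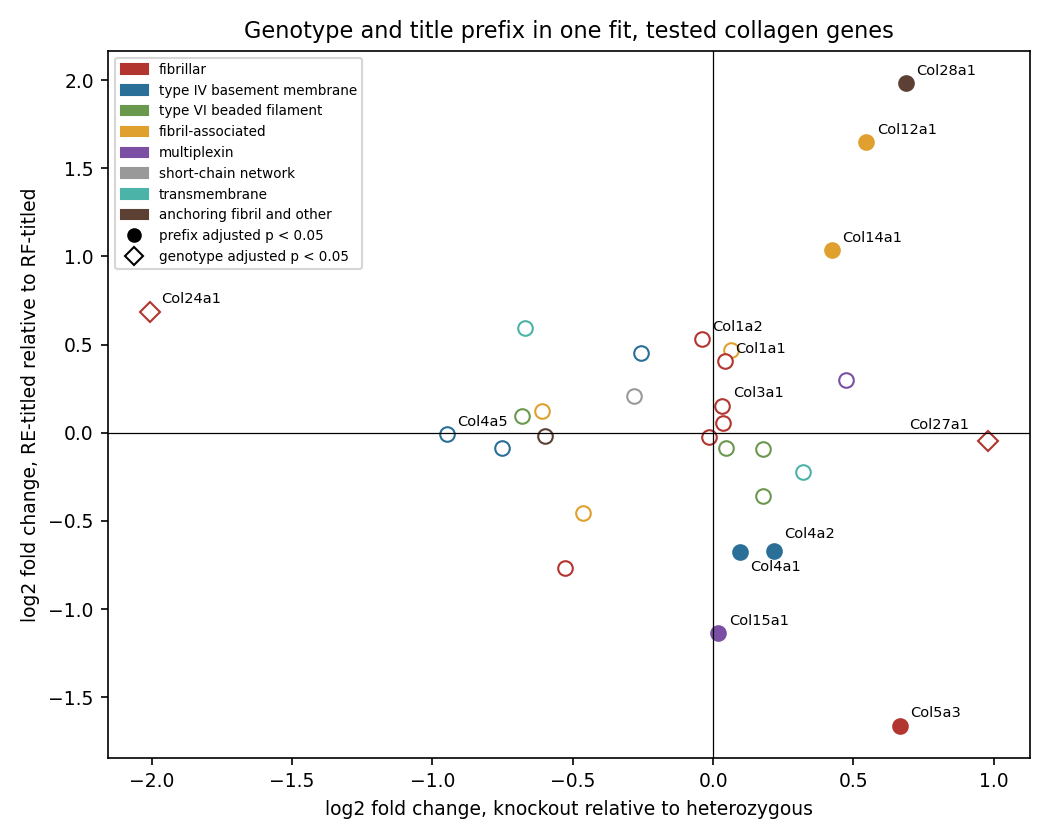
Log2 fold change of each tested collagen gene by genotype (horizontal) and by title prefix (vertical), from 1 fit with both terms, coloured by class. Filled points passed for the prefix and diamonds for the genotype: Col27a1 and Col24a1 lie far out along the genotype axis, and the 7 filled points, from Col5a3 at -1.66 to Col28a1 at 1.98, along the prefix axis.

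The balance of fibrillar to type IV collagen also differed by prefix, but this is not apart from the calls above. In the heterozygous group Col4a1 and Col4a2 averaged 482 and 371 CPM, nearly all of the type IV sum of 863 CPM. Both were called lower in the RE-titled libraries. Of all single genes tested, 34.1% had RE-titled libraries wholly on one side of the RF-titled ones. The log2 ratio of their summed reads was 0.16, -0.20 and 0.85 in the heterozygous group against -0.10, 0.21 and 0.73 in the knockout group, so the 2 RE-titled libraries were the highest. The group means differed by 0.01, with an SD of 0.53 in the heterozygous and 0.42 in the knockout libraries. Without the abundant Col1a1, Col1a2 and Col3a1 the ratio was -2.06, -2.10 and -1.77 in the heterozygous and -1.74, -1.52 and -1.57 in the knockout libraries, which did not overlap. That remainder includes Col27a1, which was called higher in these same libraries, so the separation is not apart from that result. The ratio without Col27a1 was not computed. This second ratio was not planned, and 18% of all single genes tested had groups that did not overlap. Summed fibrillar CPM was 1020.3 ± 116 and 1119.9 ± 39.7, and summed type IV CPM was 863 ± 224 and 946 ± 255 (SD, n = 3 each).

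**Figure D5:**
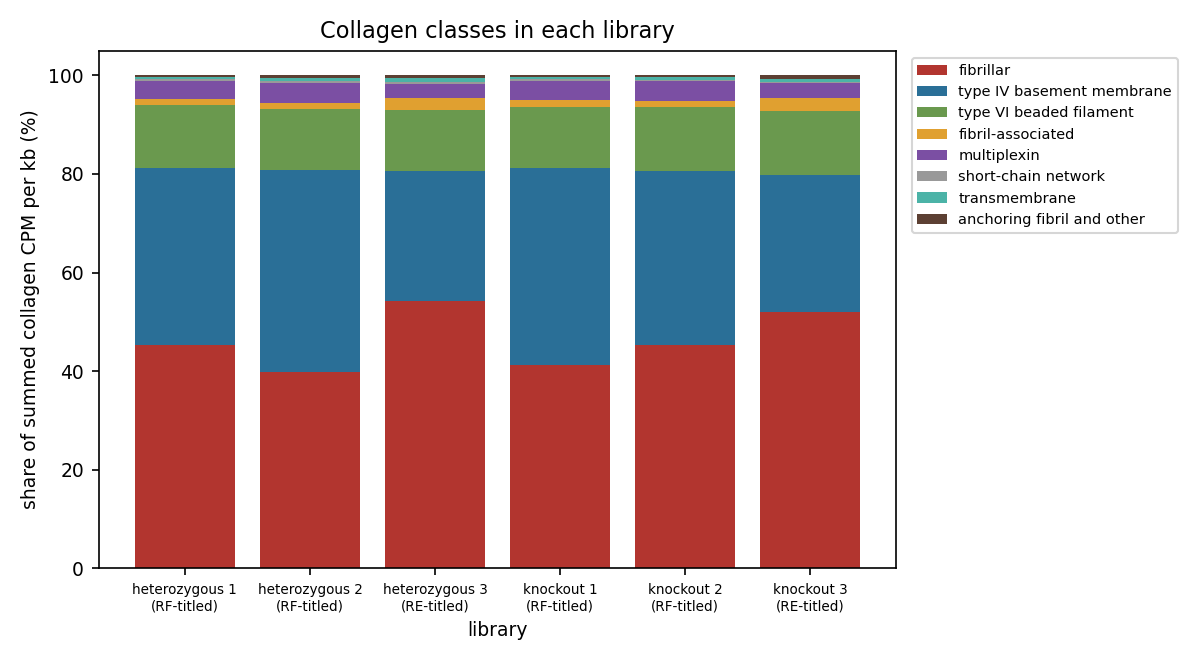
Share of each collagen class in the summed collagen CPM per kb, in percent, as stacked bars for the 6 libraries. The fibrillar share is highest in heterozygous 3 and knockout 3 (54.3% and 52.0%), the RE-titled libraries, where the type IV share is lowest (26.4% and 27.9%), and type VI takes a nearly constant share.

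Read ratios were compared for chains that assemble together. The ratio of Col1a1 to Col1a2 reads lay between 0.598 and 0.711 in all libraries, that of Col4a1 to Col4a2 between 1.14 and 1.32, that of Col5a1 to Col5a2 between 0.945 and 1.12 and that of Col6a1 to Col6a2 between 0.854 and 1.11. These are ratios of reads, not per length. The log2 ratio of Col4a1 to Col4a2 was 0.40, 0.39 and 0.34 in the heterozygous group against 0.28, 0.19 and 0.28 in the knockout group. The groups did not overlap (p = 0.1 by a two-sided exact permutation test, the lowest value that groups of 3 can give; adjusted p = 0.7 over 7 ratios). The other 6 ratios gave an exact permutation p of 0.2 to 1. Exons of another annotated gene overlap 13 of the 44 genes, Col4a1 and Col4a2 among them, and reads from such a stretch may be pooled or set aside in counting.

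The machinery around the collagens was tested in 7 lists with 105 tested genes of 113. None passed by edgeR in either direction, 5 had an unadjusted p under 0.05, DESeq2 called 1 lower, Tgfb2, and limma-voom called none. Over all genes 12.1% had an unadjusted p under 0.05, DESeq2 called 5.04% lower and limma-voom called 1.46%. The list medians ran from -0.09 to 0.08 on the log2 scale, beside 0.02 for all genes. Tgfb2, a ligand that drives matrix production, stood at 3.89 ± 0.634 CPM in the heterozygous and at 1.82 ± 0.0445 CPM in the knockout libraries (SD, n = 3 each), and its groups did not overlap (log2 -1.09, edgeR adjusted p = 0.0805). Smad3, which carries its signal, was at -0.51 (edgeR adjusted p = 0.363), and Tgfb1 at 0.45. Among 19 genes for folding and modifying chains, P3h2 (listed as Leprel1), a prolyl 3-hydroxylase, was at -0.97 (edgeR adjusted p = 0.247), Plod2, a lysyl hydroxylase, at -0.43, and Fkbp14, an endoplasmic reticulum isomerase, at 0.28. For cleavage and cross-linking (13 genes), Loxl1, a lysyl oxidase, was at 0.44 (edgeR adjusted p = 0.307), the peroxidasin Pxdn, which cross-links type IV, at -0.19, and the procollagen enhancer Pcolce at 0.22. Among 16 genes of breakdown and uptake, the metalloproteinases Mmp19 and Mmp9 were at -0.45 and -0.74 and the inhibitor Timp1 at 0.64. The 7 receptors were led by the integrin chain Itga1 at -0.27, Lair1 at -0.37 and Itgb1 at 0.07. Of 14 basement membrane partners, the laminin chains Lamc3, Lamb1 and Lama4 were at 0.73, -0.76 and 0.21. Of 20 fibril partners, Mfap4 was at -1.17, Tgfbi at 0.58 and Sparc, which binds collagen, at 0.23. Apart from the DESeq2 call of Tgfb2, none of these named genes passed by edgeR, DESeq2 or limma-voom.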

How the data were processed

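RNA sequencing libraries from frozen, pulverised brown adipose tissue came with 1 table of read counts per gene symbol that the authors deposited, with 5 summary lines of the HTSeq kind. Per the submitters' processing notes the build was mm10 and the tools were HTSeq, STAR 2.7.2b, SAMtools 1.9, Bowtie2 2.3.4.3, edgeR and Trim Galore, without roles. The sources used here do not give the annotation, strandedness or handling of multiply mapped reads. Those lines entered neither library sizes nor tests, and gene rows held 43.9% to 58.3% of each column. Groups follow the genotype label, and replicates are numbered in accession order, which pairs nothing. Depth was 18781401 to 25084627 reads in genes, and every pair of libraries differed by more than counting error (chi-square over its degrees of freedom, 41.8 to 324).

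Counts were fitted with edgeR 4.0.16 in R 4.3.3 on all 6 libraries: TMM scaling, filterByExpr (minimum count 10, minimum total 15), the robust quasi-likelihood test on genotype alone, and Benjamini-Hochberg adjustment over 13300 genes at 0.05. A standard error is the fitted change over the square root of F, and intervals are at 95%. Levels per kb divide CPM by the union of basic GENCODE M21 exons on GRCm38, on which all 44 symbols matched; 35 matched a RefSeq promoter window. The RE-titled pair's log2 ratios had 0.5 CPM added. Alternatives were other scalings and filters, leaving out each library, the title prefix as a covariate, DESeq2 1.42.0, no robust estimation, the RF-titled libraries by themselves, quality-weighted limma-voom (limma 3.58.1) and an adjusted p of 0.1.

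The members, classes and lists were chosen with earlier results of these data known. Named collagens are those called, those with groups that did not overlap at a mean CPM of at least 1, the 4 most abundant and the 3 of smallest p in each class, and the chains of the ratios; in each list, the called genes and the 3 of smallest p. The prefix comparison and 3 of the ratios were added after the values were seen. The fibrillar to type IV ratio without Col1a1, Col1a2 and Col3a1 was not planned either.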

Additional observations from a re-analysis of the deposited data

How the results depend on the processing

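No paired analysis was possible because the titles give the groups no shared replicate numbers. Of 479 log2 fold changes of tested collagens under the alternatives, 441 kept their direction and their side of the threshold. Leaving out each library in turn gave 0 to 1 collagens called higher (0 without heterozygous 2 or 3 or knockout 1 or 2), 0 to 1 called lower (1, Col24a1, without heterozygous 1) and 0 to 400 genes called in all, against 78 with all libraries. Called lower were 1 collagen with the title prefix as a covariate, 2 by DESeq2, 1 by limma-voom and 1 at an adjusted p of 0.1. Genes called in all numbered 311 with the prefix, 132 in the RF-titled libraries alone, 771 by DESeq2, 194 by limma-voom and 500 at an adjusted p of 0.1. The cause was not tested.

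The type IV median was -0.50 without a filter, which adds low-count Col4a6, and -0.42 to -0.0331 leaving out single libraries, where the median of all tested collagens was -0.13 to 0.0907. Scaled by library size alone, Col16a1 was at -0.00201, Col1a1 at -0.0233, Col3a1 at -0.0258, Col5a2 at -0.0215 and Col6a3 at -0.00839, all above 0 otherwise with 6 libraries. In the RF-titled libraries alone Col1a2 was at 0.00446. Leaving out single libraries also turned the sign of 12 uncalled genes: Col12a1 ran from -0.23 to 1.33, Col14a1 from -0.0575 to 0.81, Col15a1 from -0.19 to 0.38, Col16a1 from -0.14 to 0.22, Col1a1 from -0.12 to 0.19, Col1a2 from -0.23 to 0.18, Col28a1 from -0.35 to 1.62, Col3a1 from -0.0696 to 0.10, Col4a1 from -0.14 to 0.25, Col5a1 from -0.0564 to 0.0607, Col5a2 from -0.0638 to 0.13 and Col6a3 from -0.0545 to 0.15. With 3 libraries a group, 7 of 30 collagens had intervals within 1.5-fold either way. The 14 untested collagens had too few reads to test, and low depth and little or no expression cannot be told apart for them.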
